A study of Drosophila melanogaster with 12 samples.

Results

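The 10 cell cycle regulators described here are the Drosophila melanogaster genes CycA, CycB, CycB3, CycD, CycE, Cdk1, Cdk2, stg, E2f1 and dap. They were chosen by FlyBase symbol, because brm is a known genetic partner of Cyclin E and E2F, by a rule that uses no measured value, with earlier results of these data already known. All 10 were found among the 12986 genes of the RNA-seq table and among the 13924 genes of the ChIP-seq table, and all 10 passed the filter on low counts. In the BDGP6 annotation they lie on chromosome arms 2L (CycE and Cdk1), 2R (CycB and dap), 3L (CycA), 3R (CycB3, Cdk2, stg and E2f1) and X (CycD). The study asked which genes depend on Brahma (BRM), the ATPase of the SWI/SNF chromatin remodeling complex, and which of them need its ATPase activity. RNA was sequenced from S2 cells, an established embryonic cell line, in 4 groups of 2 biological replicates. Control cells carried the empty plasmid and received dsRNA against GFP for 48 h. BRM-depleted cells carried the empty plasmid and received dsRNA against BRM for 48 h. The recBRM-V5 cells were a stably transfected line with a plasmid for wild-type BRM, received dsRNA against BRM for 48 h, and had copper sulfate for the final 24 h to switch on the metallothionein promoter of the plasmid. The recBRM-K804R-V5 cells were treated likewise but carried BRM with the ATPase mutation K804R. Whether the cells with the empty plasmid also received copper is not stated in the sources used here, so that copper, the stable line and the recombinant protein cannot be told apart in any comparison of these lines with control or BRM-depleted cells. ChIP-seq with an antibody against endogenous BRM gave 2 immunoprecipitated (IP) and 2 Input libraries.

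The cell cycle is driven by cyclin-dependent kinases, which are active only when bound to a cyclin. Cyclin E with Cdk2 starts DNA replication, the inhibitor encoded by dap (dacapo) blocks that pair, and the transcription factor E2f1 switches on the genes of S phase, CycE among them. Cyclins A, B and B3 with Cdk1 drive mitosis, and string (stg), a phosphatase of the Cdc25 family, removes the inhibitory phosphates from Cdk1 and limits entry into mitosis in many fly cells. In flies, mutations in brm modify the phenotypes of E2f1 and of CycE, and SWI/SNF has been placed between the Rb proteins and the cyclins.

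The 250 bases upstream of the annotated start are shown for stg and CycB3, because these are the 2 regulators with a called difference in RNA level, and for CycE, because it is the classical target of E2F and a partner of brm. They were found by gene identifier in RefSeq's annotation of the BDGP6 genome and lie, on the minus strand, at chr3R:29255801-29256050 (stg), chr3R:24870817-24871066 (CycB3) and chr2L:15748151-15748400 (CycE). In the BDGP6 annotation the genes themselves span chr3R:29251826-29255800 (stg, FBgn0003525), chr3R:24867934-24870816 (CycB3, FBgn0015625) and chr2L:15727581-15748150 (CycE, FBgn0010382). Capitals mark the E2F core TTNGCGC, read on either strand, in lines that run 5′ to 3′ toward the gene.
stg: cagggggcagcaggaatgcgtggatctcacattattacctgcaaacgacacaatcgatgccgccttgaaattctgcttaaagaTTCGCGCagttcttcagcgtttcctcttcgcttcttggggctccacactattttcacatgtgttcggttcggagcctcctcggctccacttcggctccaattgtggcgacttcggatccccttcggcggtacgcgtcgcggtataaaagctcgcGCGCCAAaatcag
CycB3: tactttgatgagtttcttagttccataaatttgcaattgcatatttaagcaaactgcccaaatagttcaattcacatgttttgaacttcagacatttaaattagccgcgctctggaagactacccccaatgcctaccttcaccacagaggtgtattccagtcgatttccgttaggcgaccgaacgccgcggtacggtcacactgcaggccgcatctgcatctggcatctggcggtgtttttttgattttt
CycE: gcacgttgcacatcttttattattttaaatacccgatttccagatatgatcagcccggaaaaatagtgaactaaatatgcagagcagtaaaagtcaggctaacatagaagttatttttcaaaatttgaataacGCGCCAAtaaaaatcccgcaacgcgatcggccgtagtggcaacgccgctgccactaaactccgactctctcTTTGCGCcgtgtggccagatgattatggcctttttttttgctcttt
The stg promoter held the E2F core 2 times, starting at position −167 from the gene start on the sense strand and at −13 on the antisense strand, and a TATA box (TATAAA) at −26. The CycE promoter also held the E2F core 2 times, at −117 on the antisense strand and at −46 on the sense strand. The CycB3 promoter held none of the 4 motifs searched. In windows of 250 bases before to 50 bases after the start, the E2F core was found in 4 of the 10 regulators (CycA, CycE, Cdk1 and stg), against 12.9% of 13944 protein-coding genes. The core of the DNA replication-related element, ATCGATA, was found in CycA, CycB, CycD and Cdk2, against 18.2% of all promoters. The metal response core, TGCACNC or TGCGCNC, which is the kind of site bound by the copper-responsive factor MTF-1, was found in CycA and E2f1, against 18.7% of all promoters. In CycA, 1 of its 2 metal response matches overlaps the E2F match. The letters TATAAA were found anywhere in the window, on either strand, in CycA, Cdk1, stg and dap, against 45.8% of all promoters. They started at −239 (antisense) and −237 in CycA, −154 in Cdk1, −26 in stg and −234 (antisense) in dap. This search did not require a position close to the start, so that 45.8% is not the share of promoters with a TATA box. A match is a description of the sequence and not a site shown to be bound. Only 1 window was read for each gene, at the outer end of its annotation, so that other transcript starts were not searched.

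The RNA libraries held between 6600562 and 10287294 counts, and 8165 genes passed the filter. The targeted gene, brm, stood at 433 and 446 CPM (counts scaled to a common library size with TMM factors) in control cells and at 177 and 175 CPM in BRM-depleted cells, a log2 fold change of −1.32 that edgeR's quasi-likelihood test did not call (adjusted p = 0.468). In the recBRM-V5 line it stood at 16635 and 24893 CPM and in the recBRM-K804R-V5 line at 2118 and 2005 CPM, and the counts do not separate the endogenous transcript from that of the plasmid. Between the lines brm differed by 3.33 on the log2 scale, higher with the wild-type plasmid (edgeR adjusted p = 0.00126). The ATPase mutation, the level of brm RNA and the stable line thus cannot be told apart in comparisons between the recombinant lines. Of the 6 copper response genes tested, 5 were called higher in each recombinant line than in control cells, and the summed level of the 7 listed genes was 261 to 305 CPM in control, 283 to 295 CPM in BRM-depleted, 7061 to 10539 CPM in recBRM-V5 and 5452 to 7682 CPM in recBRM-K804R-V5 cells. The 9 hemocyte markers, which mark the blood cell lineage that S2 cells resemble, were all detected in every group, with 3 called higher (Pxn, NimC1 and He) and 2 lower (Hml and srp) in recBRM-V5 and 2 lower (Hml and Pxn) in recBRM-K804R-V5 cells. Markers of neurons, glia, muscle, fat body and gonad summed to 48.8 to 117 CPM. The neuronal marker elav was the largest part, with 83.4 and 70.5 CPM in control and 101 and 98.9 CPM in BRM-depleted cells. It had 49.4 and 43.7 CPM in recBRM-V5 and 28.0 and 42.9 CPM in recBRM-K804R-V5 cells. The gonad marker tj was at 0 in control, BRM-depleted and recBRM-V5 cells. Of the 4 tested, brp and Mlc2 were called higher and elav lower in recBRM-V5, and elav lower in recBRM-K804R-V5 cells. The part of these differences in any result below was not tested.

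All 10 regulators were expressed in control cells. Per kilobase of exon, stg stood highest at 127.7 ± 7.08 RPKM (SD, n = 2), above 93.8% of the tested genes. Next came the mitotic cyclins CycA at 94.7 ± 11.1 RPKM and CycB at 84.6 ± 5.78 RPKM, whose libraries overlapped, and the mitotic kinase Cdk1 at 72.4 ± 6.20 RPKM, below both of them. The inhibitor dap at 39.1 ± 2.49 RPKM and E2f1 at 38.9 ± 0.456 RPKM overlapped in turn, followed by CycD, the partner of Cdk4 that promotes growth and exit from G1, at 28.7 ± 1.36 RPKM. The lowest were Cdk2 at 13.5 ± 1.96, CycE at 12.4 ± 0.752 and CycB3 at 11.5 ± 0.776 RPKM, neighbors of which overlapped. The median tested gene stood at 18.2 RPKM, so that only these 3 lay below it. String also stood above every other regulator in both libraries of BRM-depleted and of recBRM-K804R-V5 cells, at 162 ± 11.4 and 112 ± 23.6 RPKM. In recBRM-V5 cells it stood at 85.9 ± 4.96 RPKM and its libraries overlapped those of CycA, at 78.0 ± 18.5 RPKM. CycB3 was lowest in every group except recBRM-K804R-V5, where it overlapped CycE, which stood lower on average at 8.59 ± 0.161 RPKM.

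**Figure D1:**
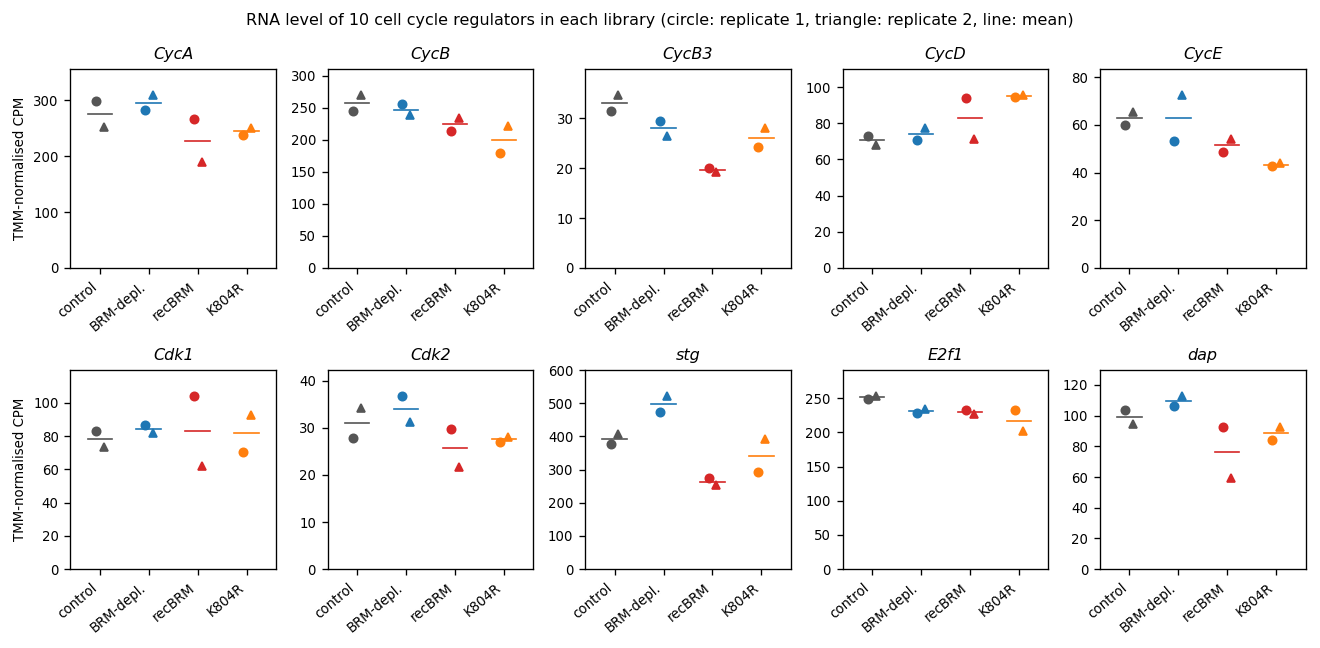
RNA level of each of the 10 regulators in TMM-normalized CPM (vertical axes, from 0) in control, BRM-depleted, recBRM-V5 (recBRM) and recBRM-K804R-V5 (K804R) cells. Circles are replicate 1, triangles replicate 2 and lines the mean. The stg libraries run from 252 CPM in recBRM-V5 to 522 CPM in BRM-depleted cells, and the 2 recBRM-V5 libraries of CycB3, at 20.0 and 19.3 CPM, lie below all others.

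Across the 4 groups the widest range belonged to stg, whose group means spanned 0.92 on the log2 scale, followed by CycB3 with 0.74, dap with 0.56 and CycE with 0.53. The narrowest ranges belonged to Cdk1 with 0.11 and E2f1 with 0.21. BRM-depleted cells held the highest mean of stg, dap, CycA, Cdk2 and Cdk1, and recBRM-V5 cells the lowest mean of stg, CycB3, dap, CycA and Cdk2.

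No regulator was called after depletion of BRM alone. Between BRM-depleted and control cells the log2 fold changes ran from −0.24 for CycB3 to 0.35 for stg, with a median of 0.09 against −0.01 over all tested genes. The smallest adjusted p of edgeR's quasi-likelihood test was 0.868, 0 regulators had an unadjusted p under 0.05, and DESeq2 and limma-voom also called 0. Of all 8165 genes tested, 0% were called in this fit of 8 libraries, so that it had no called gene for the regulators to be compared with. At an unadjusted p under 0.05 edgeR had 378 genes, and DESeq2 called 20. This 0% depended on the setting. With only the 4 libraries compared, edgeR called 44 of 7710 genes, and without a filter on low counts 66 of 12246. Neither setting called a regulator, and 1 regulator had an unadjusted p under 0.05 in the fit of 4 libraries. The 95% intervals of the 10 regulators lay between −0.65 and 0.76, and larger changes lie outside these intervals. The libraries of the 2 groups did not overlap for 4 regulators, with stg and dap higher and CycB3 and E2f1 lower in BRM-depleted cells, where 22% of all genes were higher and 22.1% lower in this way.

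String was the regulator with the largest difference. It had 376 and 407 CPM in control cells and 473 and 522 CPM in BRM-depleted cells. It had 274 and 252 CPM in recBRM-V5 cells and 291 and 394 CPM in recBRM-K804R-V5 cells. Both BRM-depleted libraries were above all others, both recBRM-V5 libraries were below all others, and the mutant libraries lay between, 1 of them within the control range. Between recBRM-V5 and BRM-depleted cells stg fell by 0.92 on the log2 scale, to 0.529 of the level (SE 0.18, 95% interval −1.34 to −0.50, edgeR adjusted p = 0.0118). In bulk RNA, fewer cells in the phase that expresses a gene and less RNA per cell cannot be told apart. The call was lost when either BRM-depleted library was left out, with adjusted p = 0.0664 without replicate 1 and 0.0966 without replicate 2, with log2 fold changes of −0.99 and −0.84. Against control cells the log2 fold change of stg in recBRM-V5 was −0.57 (SE 0.18, 95% interval −0.99 to −0.16), which edgeR did not call (adjusted p = 0.0647) and DESeq2 did (adjusted p = 0.0337). In the recBRM-K804R-V5 line it was −0.54 against BRM-depleted cells (edgeR adjusted p = 0.0951, DESeq2 adjusted p = 0.0394) and −0.19 against control cells (adjusted p = 0.584). Set directly against each other, the recombinant lines gave −0.38 for stg (95% interval −0.80 to 0.04), which edgeR did not call (adjusted p = 0.31).

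Cyclin B3, a mitotic cyclin that acts with Cdk1 in anaphase and in the female germline, was the other regulator with a call. It had 31.6 and 34.7 CPM in control cells and 29.5 and 26.5 CPM in BRM-depleted cells. It had 20.0 and 19.3 CPM in recBRM-V5 cells and 24.3 and 28.0 CPM in recBRM-K804R-V5 cells. Both control libraries were above all others and both recBRM-V5 libraries below all others, and the BRM-depleted and mutant libraries overlapped each other. Between recBRM-V5 and control cells CycB3 fell by 0.75 on the log2 scale, to 0.594 of the level (SE 0.18, 95% interval −1.16 to −0.34, edgeR adjusted p = 0.0237). This call was lost without control replicate 1 (adjusted p = 0.0848), without control replicate 2 (0.122), without recBRM-V5 replicate 2 (0.0578) and in a fit of only the 4 libraries compared (0.0882), with log2 fold changes of −0.82, −0.71, −0.73 and −0.75. The value against BRM-depleted cells was −0.51 (edgeR adjusted p = 0.0834). In the mutant line CycB3 differed from control cells by −0.34 (95% interval −0.75 to 0.06, adjusted p = 0.278), and recBRM-V5 differed from the mutant line by −0.41 (95% interval −0.82 to 0.00, adjusted p = 0.262). Its counts ran from 136 to 299 per library, and 136 was the lowest count of any of the 10 regulators in a library.

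The other 2 mitotic cyclins differed less. CycA, which acts in S phase and mitosis, had 299 and 253 CPM in control, 282 and 310.2 CPM in BRM-depleted, 266 and 189.6 CPM in recBRM-V5 and 239 and 250.5 CPM in recBRM-K804R-V5 cells. The recBRM-V5 libraries were far apart, and only replicate 2 lay below every other library. Its log2 fold change was −0.28 against control cells (95% interval −0.71 to 0.16, edgeR adjusted p = 0.366) and −0.38 against BRM-depleted cells (adjusted p = 0.199, and −0.64 with adjusted p = 0.0257 when recBRM-V5 replicate 1 was left out). CycB, the main mitotic cyclin, had 245 and 270.1 CPM in control, 255 and 239 CPM in BRM-depleted, 213 and 234 CPM in recBRM-V5 and 179 and 221 CPM in recBRM-K804R-V5 cells. All 4 libraries of the recombinant lines lay below all 4 libraries of the other cells, and the recombinant lines overlapped. The largest of its log2 fold changes was −0.37, between the mutant line and control cells (95% interval −0.72 to −0.01, edgeR adjusted p = 0.188).

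Cdk1, the kinase of mitosis, had 83.1 and 73.6 CPM in control, 87.0 and 82.0 CPM in BRM-depleted, 104 and 61.9 CPM in recBRM-V5 and 70.6 and 92.8 CPM in recBRM-K804R-V5 cells. The highest and the lowest value of the 8 libraries were the 2 replicates of the recBRM-V5 line, and no pair of groups was separated. All 6 of its log2 fold changes lay between −0.05 and 0.11, with 95% intervals no wider than −0.62 to 0.68.

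Among the regulators of G1 and S phase, CycE had 60.1 and 65.4 CPM in control, 53.2 and 72.6 CPM in BRM-depleted, 48.6 and 54.2 CPM in recBRM-V5 and 42.8 and 43.9 CPM in recBRM-K804R-V5 cells. The 2 mutant libraries were below all others, and the BRM-depleted libraries enclosed both control libraries. The mutant line differed in CycE by −0.53 on the log2 scale from control cells (SE 0.18, 95% interval −0.95 to −0.12, edgeR adjusted p = 0.104) and by −0.54 from BRM-depleted cells (adjusted p = 0.0953). In the recBRM-V5 line it was −0.29 in both comparisons (adjusted p = 0.318 and 0.287). Wild-type and mutant lines were 0.25 apart in CycE (95% interval −0.17 to 0.66, edgeR adjusted p = 0.524), so that no difference between these lines was called for the known partner of brm.

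E2f1, the activating E2F factor, had 249 and 253 CPM in control, 228 and 234 CPM in BRM-depleted, 233 and 226 CPM in recBRM-V5 and 233 and 201 CPM in recBRM-K804R-V5 cells. The control libraries were the 2 highest, and the other groups overlapped one another. Its standard error, 0.14, was the smallest of the 10, and its log2 fold changes against control cells were −0.12, −0.13 and −0.21 in the order BRM-depleted, recBRM-V5 and recBRM-K804R-V5, none called by edgeR (smallest adjusted p = 0.406). The lowest of the 3 interval bounds was −0.52.

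CycD had 72.8 and 68.1 CPM in control, 70.6 and 77.5 CPM in BRM-depleted, 94.0 and 71.4 CPM in recBRM-V5 and 94.2 and 95.7 CPM in recBRM-K804R-V5 cells. It was the only regulator with higher values in both mutant libraries than in any control library. The log2 fold change in the mutant line was 0.43 against control cells (SE 0.16, 95% interval 0.06 to 0.80, edgeR adjusted p = 0.142) and 0.36 against BRM-depleted cells (adjusted p = 0.185). In the recBRM-V5 line it was 0.23 against control cells (adjusted p = 0.38), where replicate 1 lay with the mutant libraries and replicate 2 with the control libraries.

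Dacapo, the inhibitor of Cyclin E and Cdk2, had 103 and 94.6 CPM in control, 107 and 113 CPM in BRM-depleted, 92.9 and 59.6 CPM in recBRM-V5 and 84.3 and 92.8 CPM in recBRM-K804R-V5 cells. Replicate 2 of recBRM-V5 stood far below the other 7 libraries, while replicate 1 lay beside the mutant libraries. The log2 fold change in recBRM-V5 was −0.52 against BRM-depleted cells (edgeR adjusted p = 0.114) and −0.38 against control cells (adjusted p = 0.255). When recBRM-V5 replicate 1 was left out these became −0.88 (adjusted p = 0.00682) and −0.73 (adjusted p = 0.0166), values that rest on the single remaining library of that line. Cdk2 had 27.9 and 34.2 CPM in control, 36.7 and 31.2 CPM in BRM-depleted, 29.8 and 21.6 CPM in recBRM-V5 and 27.1 and 28.0 CPM in recBRM-K804R-V5 cells, and its largest log2 fold change was −0.40, between recBRM-V5 and BRM-depleted cells (edgeR adjusted p = 0.23). The Cdk2 values are uncertain, because 43.9% of its exon bases are shared with the gene CG17267 on the opposite strand and the strand setting of the counting is not stated. Noncoding genes on the opposite strand covered 2.97% and 1.94% of the exon bases of CycE and 4.39% of those of E2f1, and the other 7 regulators share no exon base with another annotated gene.

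**Figure D2:**
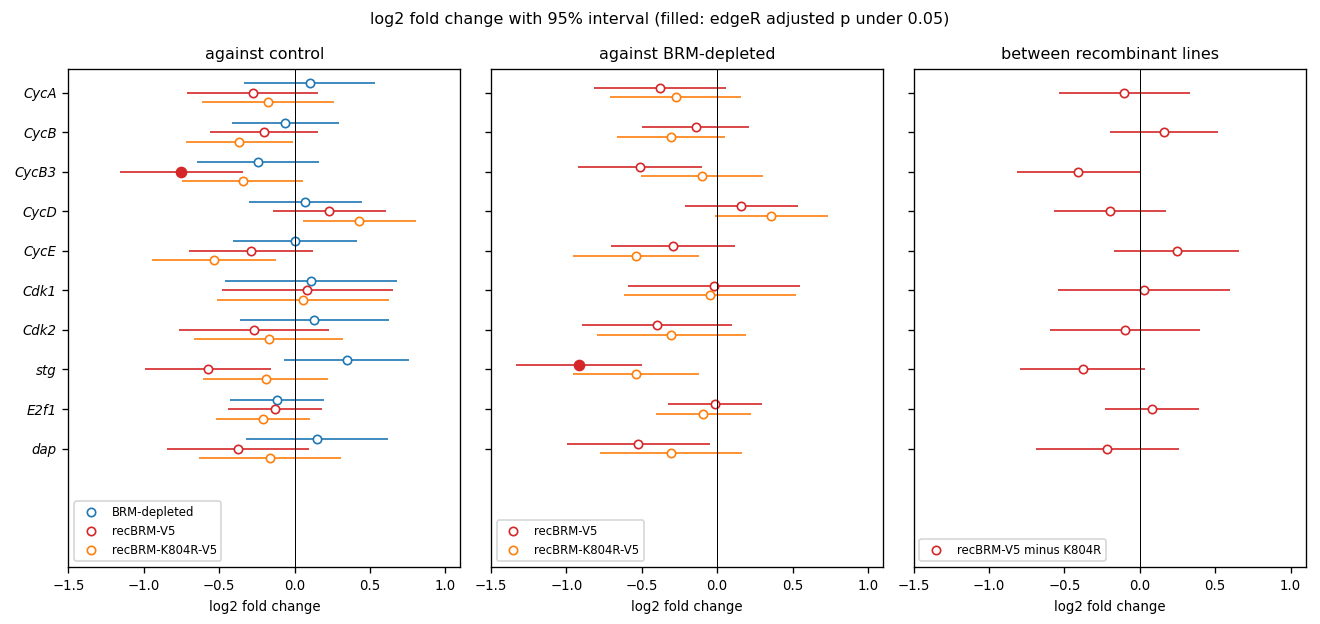
Log2 fold change (horizontal axis) of each regulator with its 95% interval, against control cells (left), against BRM-depleted cells (middle) and between the recombinant lines (right). Filled points passed edgeR's adjusted p under 0.05: CycB3 at −0.75 in recBRM-V5 against control cells, and stg at −0.92 in recBRM-V5 against BRM-depleted cells.

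Read as a group, few regulators were called in any comparison. Between recBRM-V5 and control cells 1 of 10 was called, against 18.2% of all tested genes (10.9% higher and 7.24% lower), and between recBRM-V5 and BRM-depleted cells 1 of 10, against 19.5% (11.4% higher and 8.1% lower). In the mutant line edgeR called 0 of 10 against control cells, where 10.5% of all genes were called (6.34% higher and 4.15% lower), and 0 of 10 against BRM-depleted cells, where 11.7% were called (6.87% higher and 4.85% lower). At an unadjusted p under 0.05 there were 3 in the first of these (CycB, CycD and CycE) and 2 in the second (stg and CycE), limma-voom called 0 in both, and DESeq2 called 0 in the first and stg in the second. Between the recombinant lines edgeR, DESeq2 and limma-voom each called 0 of 10, and 0 had an unadjusted p under 0.05, against 4.74% of all genes called by edgeR (2.51% higher and 2.23% lower). With both directions counted together, the share of regulators called was at or below that of all genes in each comparison. Both edgeR calls were of lower levels, 1 of 10 where 7.24% and 8.1% of all genes were called lower.

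The direction was mostly downward in the recombinant lines. Against control cells 8 of 10 log2 fold changes were negative in recBRM-V5, with a median of −0.27, and 8 of 10 in recBRM-K804R-V5, with a median of −0.18, while 49.6% and 48.9% of all tested genes were negative and their medians were 0.00 and 0.01. Against BRM-depleted cells 9 of 10 were negative in each line, with medians of −0.34 and −0.29, and the 4 comparisons share their control or BRM-depleted libraries. In all, 6 regulators had both recBRM-V5 libraries below both control libraries (stg, CycB, E2f1, dap, CycE and CycB3) and none had both above, where 26.1% of all genes lay below and 27.4% above. In the mutant line 6 lay below control cells (CycA, CycB, E2f1, dap, CycE and CycB3) and 1 above (CycD), where 26.5% and 28.2% of all genes did. Against BRM-depleted cells 6 lay below in recBRM-V5 (stg, CycA, CycB, dap, CycB3 and Cdk2) and 0 above, where 28.9% and 31.4% of all genes did, and 6 below (stg, CycA, CycB, dap, CycE and Cdk2) and 1 above (CycD) in the mutant line, where 30.9% and 37.1% did. Between the recombinant lines CycE lay above in recBRM-V5 and stg, CycD and CycB3 lay below, where 21% and 20.6% of all genes did. Scaling by library size alone, without TMM, moved the median of all genes in recBRM-V5 against control cells by under 0.1, to −0.09, and lowered the share of higher genes among those called from 60.1% to 50.3%. Against BRM-depleted cells that share went from 58.6% to 46.8% and the median of all genes from 0.05 to −0.05, so that the additional call of CycB3 under this scaling (−0.62) stands beside a shift of the same sign in all genes. Cdk1 in recBRM-V5 against control cells, at 0.09, turned sign under this scaling, to −0.0074, as did Cdk1 between the recombinant lines, from 0.03 to −0.017.

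The replicates of the recBRM-V5 line were further apart than those of the other groups. The median distance between replicates over the 10 regulators was 0.28 on the log2 scale in recBRM-V5, against 0.13 in control, 0.14 in BRM-depleted and 0.17 in recBRM-K804R-V5 cells, and over all tested genes it was 0.38, 0.23, 0.17 and 0.24 in the same order. In recBRM-V5 8 of the 10 regulators were lower in replicate 2, all except CycB and CycE, where 48.9% of all genes were. In recBRM-K804R-V5 the split went the other way, with 1 of the 10 lower in replicate 2 against 50.8% of all genes, and in control and BRM-depleted cells 4 of the 10 were lower in each, against 49.7% and 51.1% of all genes. The largest of the differences in recBRM-V5 were −0.75 for Cdk1, −0.64 for dap and −0.49 for CycA, and those of stg (−0.12), CycB3 (−0.05) and E2f1 (−0.04) were small. brm itself was higher in replicate 2, at 24893 against 16635 CPM.

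The level of stg over the 8 libraries had close neighbors. After each gene's log2 CPM was centered on its own mean, the gene nearest to stg of all tested genes was Btk, a tyrosine kinase of the Tec family, with a root mean square difference of 0.07 on the log2 scale, followed by skd, a subunit of the kinase module of Mediator, with 0.09. Btk had 164 and 159 CPM in control, 178 and 193 CPM in BRM-depleted, 108 and 107 CPM in recBRM-V5 and 116 and 154 CPM in recBRM-K804R-V5 cells. Among the 45 pairs of regulators the most alike were CycA and dap, with a difference of 0.08, then Cdk2 and dap with 0.15 and CycA and Cdk2 with 0.16, and these 3 genes were lower in replicate 2 of recBRM-V5. The least alike were CycD and stg, with 0.46. These are descriptions of 8 libraries that share their groups and depth.

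BRM occupancy was read from the ChIP-seq table, whose values are the coverage of each gene averaged over its body and short flanks. The limit of 1.1 is that of the study, which describes merging replicate alignments for its plots and no mean of replicate ratios. Here the IP signal was divided by the Input signal in each replicate, and a mean ratio of 1.1 or more was called bound, where the Input signal reached 0.5. By this rule 1 of the 10 regulators, stg, was bound, against 15.6% of 13557 genes. The stg ratio was 1.45 in replicate 1 and 0.907 in replicate 2, with a mean of 1.18. E2f1 came next, with 1.38 and 0.788 and a mean of 1.09, and CycA after it, with 1.19 and 0.931 and a mean of 1.06. These 3 reached 1.1 in replicate 1 alone, and no regulator did so in replicate 2, while 15.9% and 25.8% of all genes did so in the 2 replicates. Without replicate 1 the rule thus gave 0 bound regulators and without replicate 2 it gave 3.

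The other 7 regulators had ratios from 0.664 to 1.09. CycE, with 1.04 and 0.928, and CycB, with 1.09 and 0.892, lay near the median gene, whose mean ratio was 0.962. The lowest was Cdk2, with 0.857 and 0.664, among the lowest 4.43% of all genes by its mean of 0.760. In 9 of the 10 regulators the ratio was lower in replicate 2, the exception being CycB3, with 0.865 and 1.03, although the median ratio of all genes was almost the same in both replicates, 0.937 and 0.934. limma on log2(signal + 0.1) called 0 of the 10 regulators for IP against Input, with 0 at an unadjusted p under 0.05, and 0% of all genes, with 0.0443% of them at an unadjusted p under 0.05. This fit did not pair each IP with its own Input. Since it called no gene at all, its 0 cannot show whether a regulator was bound. The signal before division was uneven. The Input signal of stg was 2.39 and 1.98 times that of the median gene, above 99.2% and 98.7% of all genes, and that of E2f1 was 1.60 and 1.51 times the median. The depth of the ChIP-seq libraries is not known from the table, so no counting error can be given.

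**Figure D3:**
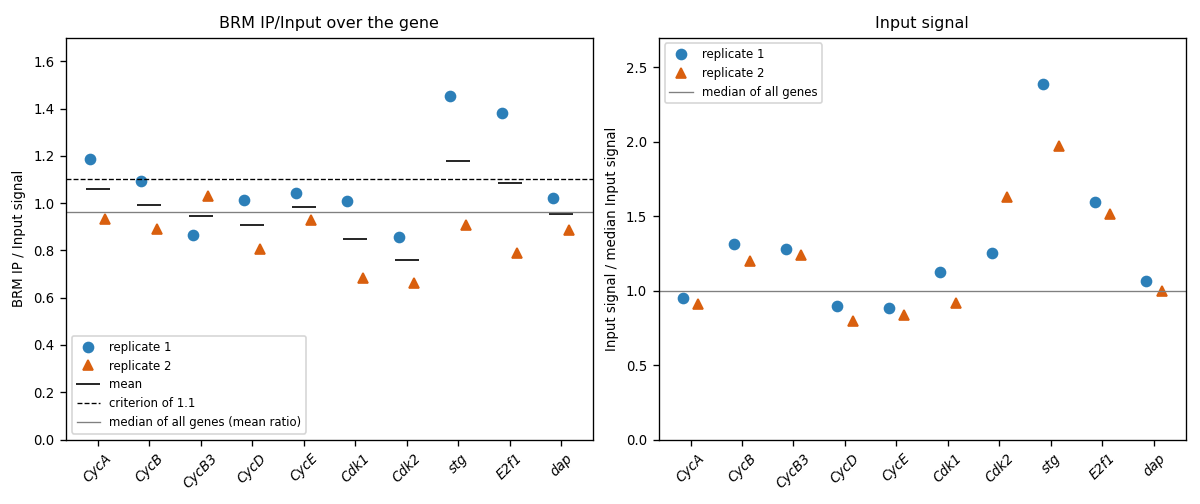
BRM ChIP-seq at the 10 regulators. Left, ratio of IP to Input signal in each replicate with the mean, the limit of 1.1 (dashed) and the median of all genes (gray). Right, Input signal relative to the median gene. Only stg has a mean above 1.1, with 1.45 in replicate 1 and 0.907 in replicate 2, and its Input signal is the highest of the 10.

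Other genes of the cell cycle, together with other cyclins and kinases and genes of growth control, were read from 7 lists, of which 94 genes were tested. Not all of them act in the cell cycle. In recBRM-V5 cells 10 of them (10.6%) were lower than in control cells by edgeR's test and 0 were higher, where 7.24% of all tested genes were lower and 10.9% higher. In the list of S phase and replication 3 of 20 fell, Orc2 by 1.06 and Mcm5 by 0.89 on the log2 scale, which encode parts of the origin recognition complex and of the replicative helicase, and Prim1, a primase subunit, by 0.84 (adjusted p = 0.00705, 0.00409 and 0.0371). The median of the 20 was −0.41 and 18 had a negative log2 fold change, where the median of all genes was 0.00. Of the 21 genes of mitosis 3 fell, the kinases polo by 0.59, Wee1 by 0.57 and BubR1 by 0.65, of which Wee1 counteracts stg on Cdk1 (edgeR adjusted p = 0.0498, 0.0283 and 0.0492), with a median of −0.29 over the list. Single genes fell in the lists of E2F, Rb and dREAM proteins (Rbf2, by 0.85), of the anaphase promoting complex (APC7, by 2.24), of other cyclins and kinases (CycT, by 0.54) and of growth control (wts, the Warts kinase of the Hippo pathway, by 1.19), with edgeR adjusted p = 0.0251, 0.0116, 0.0261 and 0.00169. None of the 12 genes of checkpoints and cyclin turnover was called, and 3 had an unadjusted p under 0.05.

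In recBRM-K804R-V5 cells 1 of the 94 genes was lower than in control cells, Orc2, which fell by 0.85 (edgeR adjusted p = 0.0243), and 0 were higher, where 4.15% of all tested genes were lower and 6.34% higher. The medians of the S phase and mitosis lists were −0.22 and −0.24. In BRM-depleted cells 0 were called against control cells, 3 had an unadjusted p under 0.05, and 18 of the 20 S phase genes had a negative log2 fold change, with a median of −0.18. Against BRM-depleted cells 12 of the 94 genes (12.8%) were lower and 0 higher in recBRM-V5, where 8.1% of all tested genes were lower and 11.4% higher. In recBRM-K804R-V5 6 of the 94 (6.38%) were lower than in BRM-depleted cells and 1 (1.06%) was higher, near or under the 4.85% lower and 6.87% higher of all tested genes. By edgeR's test wts alone of the 94 genes differed between the recombinant lines, by −0.74 on the log2 scale in recBRM-V5 relative to recBRM-K804R-V5 cells (SE 0.14, edgeR adjusted p = 0.0268).

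**Figure D4:**
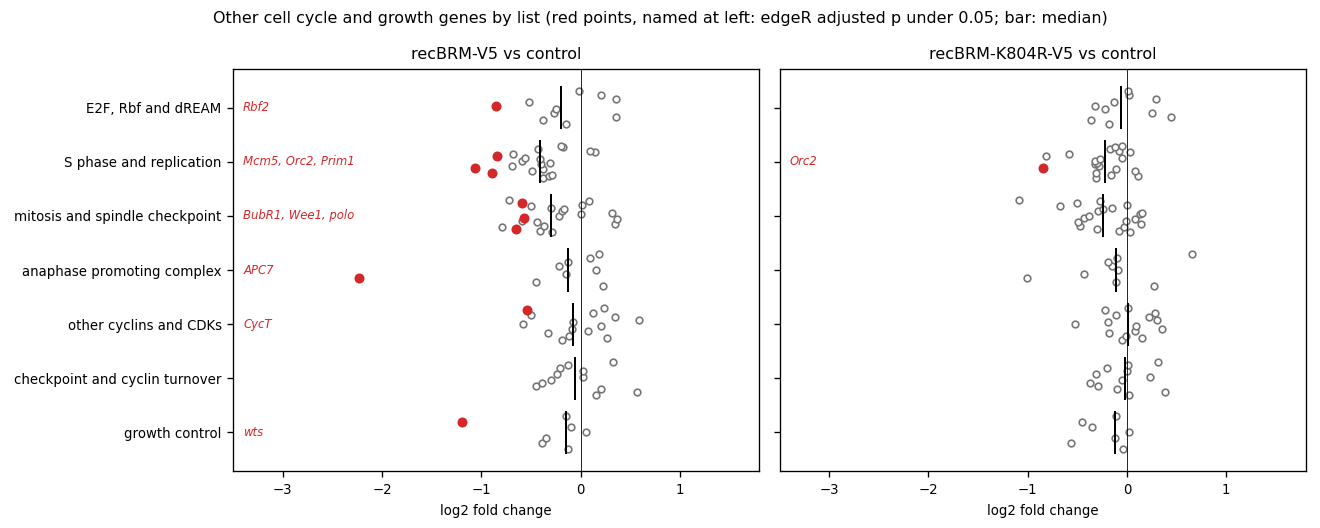
Log2 fold change (horizontal axis) of the genes of 7 other lists in recBRM-V5 (left) and recBRM-K804R-V5 (right) against control cells. Each point is 1 gene, bars are medians and red points, named at the left of each panel, passed edgeR's adjusted p under 0.05. All 10 called genes in the left panel and Orc2 in the right panel lie below 0.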

How the data were processed

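The RNA-seq table holds deposited raw counts per gene of 8 libraries. Per the paper's methods and the labels, the authors mapped strand-specific paired-end reads with TopHat2 and counted them with HTSeq. The labels name the build dm3, the methods BDGP6 (Dm3), and neither table holds coordinates. The ChIP-seq table of 4 libraries, though deposited as counts, holds coverage signal that the authors made with Bowtie 2 and ngs.plot. Its scaling, the annotation release and the counting options are not given in the sources used here.

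A single quasi-likelihood fit over the 8 libraries, without replicate block, used edgeR 4.0.16 under R 4.3.3 after TMM scaling and filterByExpr, and p-values were adjusted by Benjamini and Hochberg over the 8165 of 12986 genes tested, with calls at 0.05. Other settings tried were limma-voom (limma 3.58.1), DESeq2 1.42.0, other scalings, filters and thresholds, a replicate block, and fits without 1 library, in which a lone library is assumed to vary like the other groups. The RNA-seq p-values set a difference against the spread between labeled biological replicates, pooled over the groups in the fit. The ratio of IP to Input was taken per replicate, and limma was run on log2(signal + 0.1). RPKM used the exon union length of the BDGP6 annotation. The fits were also run on simulated data, with outcomes not given here. The simulated ChIP-seq noise was smaller than the limma standard errors of the regulators, 0.24 to 0.39 on the log2 scale. That simulation therefore cannot speak for their ChIP-seq test.

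The regulators and the other lists were chosen with earlier results of these data known. Of 130 listed genes, 121 matched. The text names the members and the genes nearest to the member with the widest range. Of the lists other than copper response, it names the genes called against control cells or between the recombinant lines. Genes of the cell cycle and growth lists called against BRM-depleted cells are given as counts. The nearest gene of rank 3 had no symbol and is not named. Python 3.11.15 and matplotlib 3.10.9 were used for the remaining steps and the figures.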

Additional observations from a re-analysis of the deposited data

Results flagged for a closer look

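Outside the 10 regulators, 7 genes of the lists differed between the recombinant lines themselves by edgeR's quasi-likelihood test. Against recBRM-K804R-V5 cells the log2 fold change in recBRM-V5 cells was −0.74 for wts (adjusted p = 0.0268), 3.33 for brm (0.00126) and 0.94 for brp (0.037). It was 2.21 for Pxn (0.00167), 5.51 for NimC1 (0.000931), 2.38 for Sr-CI (0.0405) and 4.49 for He (0.00146), which are 4 of the 9 hemocyte markers. The NimC1 level was 376 and 205 CPM in recBRM-V5, 6.99 and 5.60 CPM in recBRM-K804R-V5 and 2.74 and 1.83 CPM in control cells.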

How the results depend on the processing

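The call of CycB3 in recBRM-V5 against control cells and that of stg in recBRM-V5 against BRM-depleted cells kept their direction in all alternatives run. The number of regulators called, 1 in each of these comparisons, became 2 and 2 with library size alone and without a filter on low counts, 2 and 2 at an adjusted p under 0.1 and 0 and 0 at 0.01. For recBRM-V5 against control cells it was 2 with DESeq2, 0 in a fit of the 4 libraries compared, and 0 to 2 when 1 library was left out. For recBRM-V5 against BRM-depleted cells it was 0 to 3 when 1 library was left out. For recBRM-K804R-V5 against BRM-depleted cells, 0 became 1 with DESeq2 and 2 at an adjusted p under 0.1. With library size alone, stg reached −0.66 (adjusted p = 0.0441) against control cells and CycB3 −0.62 (0.0459) against BRM-depleted cells in recBRM-V5, and with no filter stg reached −0.62 (0.0391) and dap −0.57 (0.0432). Same-numbered libraries deviated together in control and recBRM-V5 cells (correlation 0.63) and in BRM-depleted and recBRM-K804R-V5 cells (0.24), and in opposite directions in the other 4 pairs of groups (−0.32 to −0.27), so the numbers were not taken to pair the samples. A replicate block left the number of regulators called at 0, 1, 0, 1, 0 and 0 and that of limma for IP against Input at 0. With crossed pairing, chosen after seeing the data, the counts were 2 and 1 for the lines with wild-type and mutant BRM against control cells and 3 and 2 against BRM-depleted cells. Values near 0 changed sign: CycE in BRM-depleted against control cells to −0.0091 with limma-voom and −0.0066 with the block, Cdk1 in recBRM-V5 to −0.0074 against control cells with library size alone, and Cdk1 between the recombinant lines to −0.017 with library size alone and −0.0017 with the block. The log2 fold changes that changed sign when 1 library was left out ran, for BRM-depleted against control, −0.010 to 0.23 for CycA, −0.13 to 0.015 for CycB, −0.24 to 0.21 for CycE and −0.011 to 0.29 for Cdk2. They ran, for recBRM-V5 against control, −0.34 to 0.41 for Cdk1. They ran, for recBRM-K804R-V5 against control, −0.15 to 0.24 for Cdk1 and −0.42 to 0.0087 for stg. They ran, for recBRM-V5 against BRM-depleted, −0.052 to 0.34 for CycD, −0.45 to 0.30 for Cdk1 and −0.032 to 0.0073 for E2f1. They ran, for recBRM-K804R-V5 against BRM-depleted, −0.21 to 0.00042 for CycB3, −0.26 to 0.14 for Cdk1 and −0.20 to 0.0094 for E2f1. They ran, for recBRM-V5 against recBRM-K804R-V5, −0.37 to 0.12 for CycA, −0.40 to 0.35 for Cdk1, −0.35 to 0.11 for Cdk2, −0.022 to 0.19 for E2f1 and −0.57 to 0.070 for dap. The number of regulators bound by BRM, 1, became 2 with summed signals (stg and E2f1), 3 with ratios divided by their median, 3 at a limit of 1.0, 0 at 1.2, and 0 to 3 when a replicate was left out. The cause of these changes was not tested. With 2 libraries a group, the standard errors of the regulators were 0.14 to 0.25 on the log2 scale.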
